A study of Mus musculus with 2 samples.

Results

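The promoters of 82 ribosomal protein genes were examined for LUZP1, a leucine zipper protein, in E14 mouse embryonic stem cells. The genes were taken from 22367 protein-coding gene starts of mm9 by their names: Rpl or Rps followed by a number, with the optional letters a, x, l or p, together with Rplp0, Rplp1, Rplp2, Rpsa and Fau. Names of pseudogenes, of mitochondrial ribosomal proteins and of S6 kinases were left out, as were 2 genes with a further number in the name, Rpl7l1 and Rpl22l1. The promoter was the 1001 bp centred on the annotated start, that is, 500 bp on each side. Of the 82 genes, 49 encode proteins of the large ribosomal subunit and 33 of the small subunit, and they lie on 20 chromosomes with no window shared between members.

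Both groups were made from the E14 line (strain 129P2/OlaHsd, passages 25 to 30), grown without feeder cells. Chromatin was precipitated with rabbit serum against LUZP1 (1 library, 4214959 mapped reads of 36 bp) or in a mock precipitation (1 library, 2734938 reads), which the sample labels describe as made with no antibody and the design text as made with GST. Each group was 1 library from 1 line. There was therefore no test and no p-value, and every 95% interval below covers counting error alone. Precipitated DNA does not report gene expression, so the identity of the cells could not be checked against marker genes here.

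Ribosomal proteins assemble with ribosomal RNA into the subunits that translate every mRNA, and growing cells such as embryonic stem cells make them in large amounts. Their genes are transcribed by RNA polymerase II from short promoters rich in CpG, and initiation falls in a run of pyrimidines, so the mRNAs begin with the 5′ terminal oligopyrimidine (TOP) sequence through which mTOR controls their translation. Many of the introns carry small nucleolar RNAs (snoRNAs), which guide the modification of ribosomal RNA.

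The sequences below show the start region of the members at which the count results turn: Rpl18 and Rpl12, the only members with an interval above 1, and Fau, Rpl27 and Rpl27a, which are among those with the most reads in both libraries together. Each runs 5′ to 3′ on the gene's strand of mm9 from 80 bases before the annotated start to 20 bases from the start on. For Rpl12, where an exon of Lrsam1 covers the stretch, it begins 10 bases before. Capitals mark the longest run of C and T within 10 bp of the start, and any match to the motifs searched.
Rpl18 (chr7:52970747-52970846, plus strand): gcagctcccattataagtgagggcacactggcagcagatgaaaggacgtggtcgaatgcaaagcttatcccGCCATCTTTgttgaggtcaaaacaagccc
Rpl12 (chr2:32817069-32817098, plus strand): aTCCCgagctcacccacagaccaagctctg
Fau (chr19:6057813-6057912, plus strand): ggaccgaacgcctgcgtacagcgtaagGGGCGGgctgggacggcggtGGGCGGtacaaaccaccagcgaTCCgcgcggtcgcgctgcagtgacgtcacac
Rpl27 (chr11:101303532-101303631, plus strand): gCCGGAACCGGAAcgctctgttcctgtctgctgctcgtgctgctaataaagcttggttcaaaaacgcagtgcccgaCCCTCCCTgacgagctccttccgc
Rpl27a (chr7:116662581-116662680, plus strand): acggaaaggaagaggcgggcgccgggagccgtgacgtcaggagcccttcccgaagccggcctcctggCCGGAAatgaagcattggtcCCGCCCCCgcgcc

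In Rpl27 the run of 8 pyrimidines spans the annotated start, and 2 copies of CCGGAA, the core bound by ETS factors such as GABP, stand in tandem near the upstream end. In Rpl18 the run fills the 5 bases before the start and overlaps a YY1-type match on the opposite strand. In Rpl27a the run begins 10 bases past the start, and a copy of CCGGAA lies upstream. Only 21 of the 82 members (25.6%) had C as the first annotated base, against 15.4% of all coding starts.

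Motifs were searched on both strands from 250 bases before to 50 after the start, without regard to overlap. CCGGAA occurred in 34 of the 82 members (41.5%) and in 17.5% of all 22367 coding promoters of the same length. GGGCGG, the core of Sp1 sites, occurred in 40 members (48.8%, against 43.4%), and AAGATGGC, the core of YY1 sites, in 6 (7.32%, against 3.30%). TATAAA and CACGTG, the E-box, were each present in 9 members (11.0%), against 13.4% and 7.78% of all. A run of 8 or more pyrimidines that reached within 10 bp of the annotated start, but need not include it, was present in 23 members (28.0%, against 13.8%). For runs of 6 or more the shares were 37.8% and 29.6%, and for runs of 10 or more 13.4% and 6.96%. The median number of CpG in the 300 bases was 18.5, against 11 in the other promoters. Mean GC content of the 1001 bp windows was 56.8% in members, with a range of 46.9% to 68.2%, and 54.2% in the other starts.

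Pooled over the 82 promoters, LUZP1 was not detectably enriched over the mock. The LUZP1 library had 308 reads, extended to 200 bp, in these windows and the mock had 185. Scaled to total reads, the LUZP1 to mock ratio was 1.08 (95% interval 0.897 to 1.30). The median over genes, with 1 added to both scaled counts, was 1.02, with an interval over the ranked genes of 0.899 to 1.41. LUZP1 was higher at 41 genes and lower at 41, while over all coding starts it was higher at 53.0% and lower at 39.0%. Leaving out single genes moved the pooled ratio between 1.05 (without Rpl12) and 1.12.

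The other 22285 coding starts, 65294 and 36097 reads, had a ratio of 1.17 (1.16 to 1.19). The ratio at ribosomal protein genes divided by theirs was 0.920 (0.767 to 1.11), an interval that includes 1. Genomic windows of the members' GC content had a ratio of 1.22. Relative to such windows the members were at 0.883 (0.733 to 1.07) and the other starts at 0.970 (0.958 to 0.983).

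Both libraries, the mock included, held more reads at ribosomal protein gene starts than over the genome. A window had on average 3.76 LUZP1 reads, 1.90 times the genome mean (1.69 to 2.13), and 2.26 mock reads, 1.76 times (1.52 to 2.03). Other coding starts stood at 1.48 times in LUZP1 (1.47 to 1.49) and 1.27 times in the mock (1.25 to 1.28). The members' density was thus 1.28 times theirs in LUZP1 (1.14 to 1.43) and 1.39 times in the mock (1.20 to 1.61). When the other starts were limited to those with at least 80% of 36-base sequences occurring once in the genome, the values were 1.19 (1.06 to 1.33) and 1.32 (1.14 to 1.53). Set against genomic windows matched for GC content, the members held 1.22 times the reads in LUZP1 (1.09 to 1.36) and 1.38 times in the mock (1.19 to 1.60). The surplus over other starts was therefore present in the precipitation without the LUZP1 serum as well. Of the members, 4 fell under the 80% limit, the lowest being Rps29 at 60.3%.

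Single promoters held few reads. Counts did not pass 9 in either library, with medians of 3 in LUZP1 and 2 in the mock. The mock had 0 reads at 17 members and LUZP1 at 1, while no member lacked reads in both. The variance of counts over members divided by their mean was 1.19 in LUZP1 and 1.53 in the mock, where counting error alone gives 1, and Pearson's r between the libraries over the 82 genes was 0.013 (Spearman's rho 0.049). At counts this low a correlation near 0 says little about whether the libraries share their spread.

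**Figure D1:**
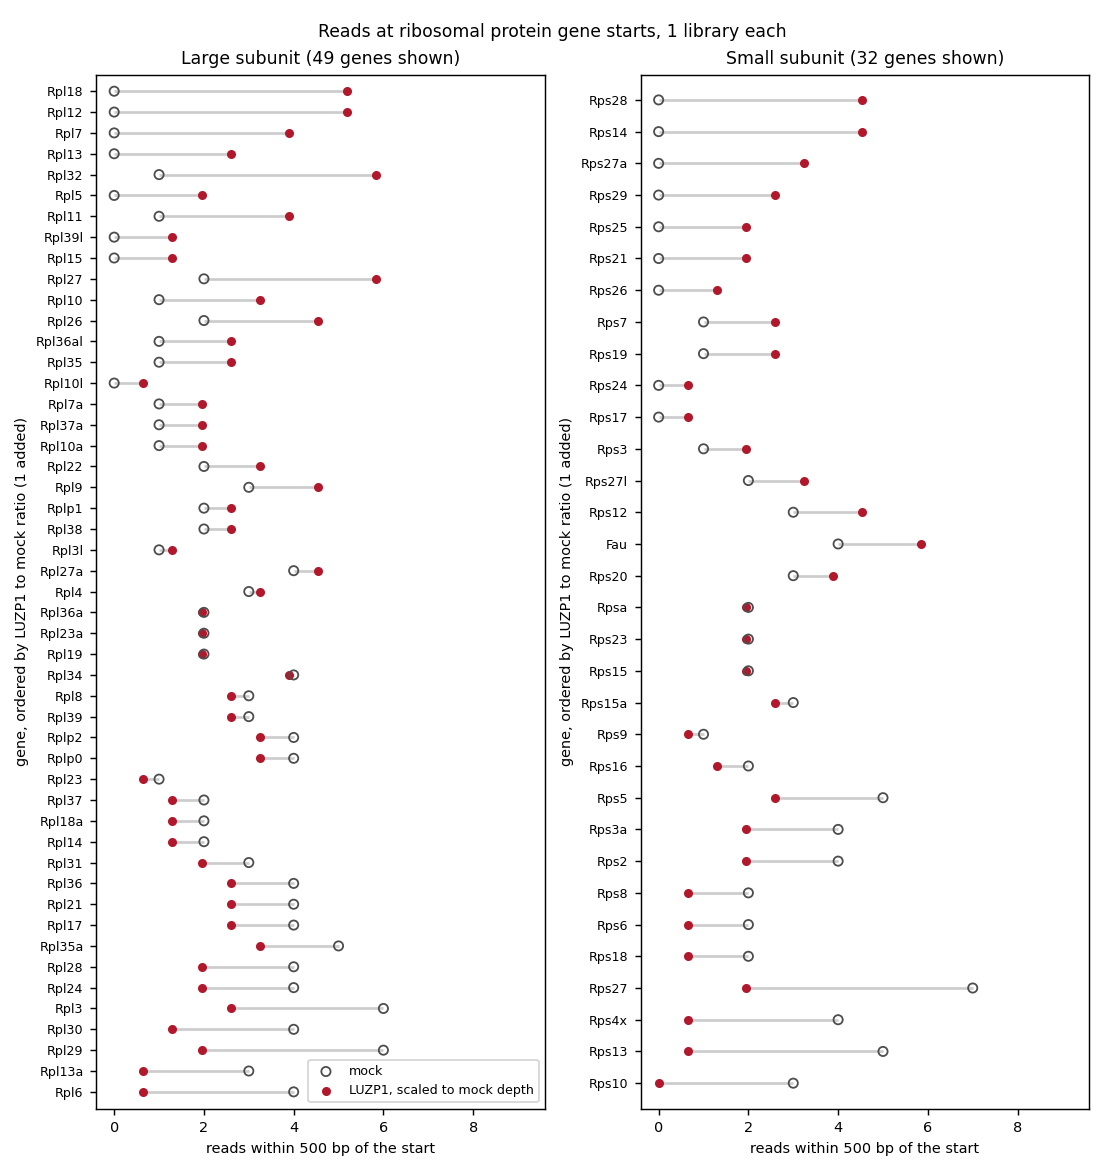
Reads within 500 bp of the start of 81 of the 82 genes, by subunit; filled points are LUZP1 reads scaled to the mock's depth, open circles are mock reads, and genes are ordered by their ratio with 1 added. LUZP1 lies to the right at the top, where most mock circles are at 0, and to the left at the bottom, with no gene past 9 reads.

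The interval of the ratio lay above 1 at 2 of the 82 members (2.44%) and below 1 at 0, against 1.06% and 1.61% of all 22367 coding starts. At this depth 8 LUZP1 reads against 0 mock reads are the fewest that put an interval above 1, 14 are needed against 2 mock reads, and 4 mock reads against 0 put an interval below 1. By size alone, 18 members (22.0%) were at least 2-fold higher in LUZP1 with 1 added to both scaled counts, against 26.2% of all starts. Another 9 (11.0%) were at least 2-fold lower, against 13.9%. Neither share of 2-fold members stood above that of coding starts at large.

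Both genes with an interval above 1 encode proteins of the large subunit. Rpl18 (start at 52970827 of chromosome 7, plus strand) had 8 LUZP1 reads and 0 mock reads, 1.73-fold when set against 3 mock reads, the limit that a count of 0 allows, with a lower interval bound of 1.11. Rpl12, whose protein sits at the base of the stalk, had the same counts at its start (32817079 of chromosome 2, plus strand), where the window also holds the start of Lrsam1 and 90.6% of sequences occur once. Both rest on the 8-read minimum. When plus and minus reads lying one fragment length apart were merged into 1 count, they had 7 and 4 fragments against 0, and lower bounds of 0.892 and 0.408. Under that count 0 of the 82 members had an interval above 1.

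Next in order were Rps14 and Rps28, small subunit proteins, each with 7 and 0 reads and a lower bound of 0.935, and Rpl7 of the large subunit, with 6 and 0 and a lower bound of 0.764. At the other end, Rps10, a protein of the small subunit's head, had 0 LUZP1 and 3 mock reads, with an upper bound of 1.57. Rps13 had 1 and 5 reads, a ratio of 0.130 (0.00274 to 1.16). Rpl6 and the X-linked Rps4x each had 1 and 4, a ratio of 0.162 (0.00329 to 1.64), and Rps27 had 3 and 7, a ratio of 0.278 (0.0464 to 1.22). All 8 of these intervals include 1.

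Members with many reads were no clearer. Fau, which encodes a ubiquitin-like protein fused to a small subunit protein, had 9 LUZP1 and 4 mock reads (ratio 1.46, 0.407 to 6.49). Rpl27 had 9 and 2, a ratio of 2.92 (0.604 to 27.8), and Rpl27a 7 and 4, a ratio of 1.14 (0.289 to 5.29). In this window enrichment or depletion was not detectable for these 3 genes. With 250 bp on each side Rpl27 had 9 and 0 reads and a lower bound of 1.28. It was the 1 of 82 members with an interval above 1 at that width. The share of all coding starts at that width is not given, so this does not show enrichment at Rpl27. Another 7 members held 10 reads each: Rpl3, Rpl9, Rpl32, Rpl34, Rpl35a, Rps12 and Rps27. Among them Rpl32 was highest at 9 and 1 reads, a ratio of 5.84 (0.809 to 256).

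Genes of known special roles showed no common direction. The stalk proteins, which recruit elongation factors, had 5 and 4 reads at Rplp0, 4 and 2 at Rplp1 and 5 and 4 at Rplp2, together a ratio of 0.908 (0.375 to 2.29). Rpl5 and Rpl11, which bind Mdm2 when ribosome assembly fails, had 3 and 0 and 6 and 1 reads. Rps19, the gene mutated most often in Diamond-Blackfan anaemia, had 4 and 1 reads, a ratio of 2.60 (0.257 to 128). Rps6, the substrate of the S6 kinases, had 1 and 2, and Rpsa, also known as the laminin receptor, had 3 and 2, a ratio of 0.973 (0.112 to 11.7). Rpl10, which joins the large subunit late in its assembly, had 5 and 1 reads, a ratio of 3.24 (0.363 to 153). Each of these intervals includes 1.

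The large and small subunits did not differ beyond counting error. Large subunit genes had 198 and 111 reads (ratio 1.16, 0.913 to 1.47), and small subunit genes 110 and 74 (ratio 0.964, 0.712 to 1.31). The first divided by the second was 1.20 (0.825 to 1.75). With 1000 bp on each side the large subunit ratio was 1.23 (1.02 to 1.48), an interval above 1. At that width the ratio of all 82 members divided by that of the other coding starts was 0.992 (0.862 to 1.14). The 5 paralogs named with l, Rpl3l, Rpl10l, Rpl36al, Rpl39l and Rps27l, of which Rpl3l is known from muscle and Rpl10l from testis, had 14 and 4 reads, a ratio of 2.27 (0.713 to 9.47). Their mock density was 0.625 times the genome mean (0.170 to 1.60) and their LUZP1 density 1.42 times (0.775 to 2.38), both intervals including 1. Relative to the remaining members the paralogs were at 2.16 (0.699 to 6.65).

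Since the series concerns non-coding RNA genes, members that host snoRNAs were set against the rest. The annotation places 58 snoRNA genes on the same strand inside 30 members. At the starts of these hosts 111 LUZP1 and 84 mock reads were counted (ratio 0.857, 0.640 to 1.15), and at the 52 members without snoRNA 197 and 101 (ratio 1.27, 0.991 to 1.62). The first divided by the second was 0.678 (0.467 to 0.982), so LUZP1 over mock was not higher at hosts. After GC matching the hosts were at 0.702 (0.524 to 0.943) and the others at 1.03 (0.809 to 1.33). Of the 30 hosts 11 were higher and 19 lower in LUZP1, and of the others 30 and 22. Those are 36.7% and 63.3% of hosts and 57.7% and 42.3% of the others, beside the 53.0% and 39.0% of all coding starts. The libraries contributed unequally: LUZP1 density was 1.87 times the genome mean at hosts and 1.92 times at the others, whereas mock density was 2.19 times (1.74 to 2.71) and 1.52 times (1.24 to 1.84). With paired reads counted once the quotient was 0.689 (0.460 to 1.03), an interval that includes 1, and without 1 single host it was 0.725 (0.495 to 1.06), which also includes 1. The part of mock density in the difference was not tested.

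Windows with another coding start, 15 members in all, had a ratio of 1.30 (0.842 to 2.04) and those without, 67 members, 1.03 (0.840 to 1.27), a quotient of 1.26 (0.790 to 1.999). Members at or above the median GC content of 56.9% had 1.09 (0.837 to 1.41) and those below it 1.07 (0.821 to 1.41). These features did not separate the members at this depth.

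**Figure D2:**
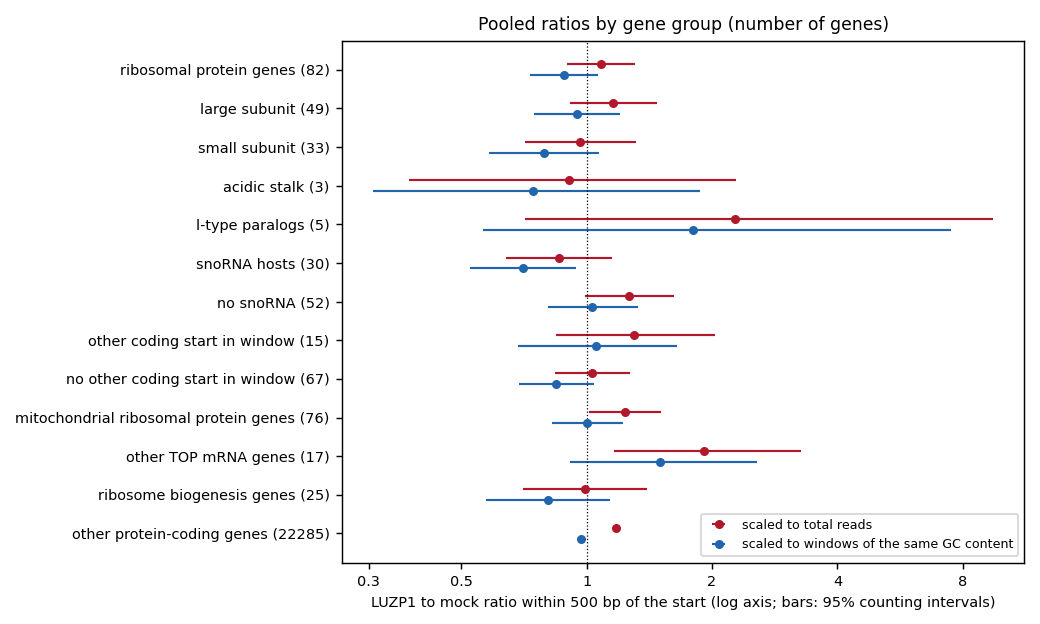
Pooled LUZP1 to mock ratio within 500 bp of the start (log axis) for classes of ribosomal protein genes and for comparison lists, with the number of genes in brackets; red is scaled to total reads, blue to windows of the same GC content, and bars are 95% counting intervals. The interval of all 82 members includes 1 on both scales, at 1.08 and 0.883, and other genes with TOP mRNAs stand highest of the comparison lists, at 1.92 and 1.50.

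Genes of related function were compared in the same windows. The 76 mitochondrial ribosomal protein genes, whose products build the separate ribosome of mitochondria, had 299 and 157 reads, a ratio of 1.24 (1.01 to 1.51). After GC matching it was 1.003 (0.825 to 1.23), and with paired reads counted once 1.10 (0.891 to 1.36), both intervals including 1. Of the 76 genes 4 had an interval above 1 and 1 below, against 1.06% and 1.61% of all coding starts. The cytosolic genes divided by these were at 0.874 (0.670 to 1.14). The 25 genes of ribosome biogenesis, such as Ncl (nucleolin), Fbl (fibrillarin) and Polr1a (an RNA polymerase I subunit), held 90 and 59 reads at a ratio of 0.990 (0.705 to 1.40) and a median of 0.982, with 0 intervals on either side of 1.

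The other genes with TOP mRNAs, 17 genes of translation factors and other growth-related proteins, stood higher. Their starts held 65 LUZP1 and 22 mock reads in all. The ratio was 1.92 (1.17 to 3.27), with a median of 1.65 against 1.15 over all coding starts, and 11 were higher and 5 lower (64.7% and 29.4%, against 53.0% and 39.0% of all coding starts). None of the 17 had an interval above 1. The highest was Tpt1, a growth-related protein, with 7 and 0 reads and a lower bound of 0.935. Eef1a1, the elongation factor that delivers tRNA to the ribosome, had 4 and 0, whereas Eef2, the factor for translocation, had 1 and 3. The ribosomal protein genes divided by this list were at 0.563 (0.336 to 0.945). LUZP1 densities were 1.94 and 1.90 times the genome mean at the TOP list and at the ribosomal protein genes, and mock densities were 1.01 (0.634 to 1.53) and 1.76 (1.52 to 2.03). The part of mock density in this difference was not tested either. The TOP list was the more GC-rich, with a mean of 58.7%. Matched for GC content, its ratio was 1.50 (0.914 to 2.56), an interval that includes 1.

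Along the promoter, neither library showed a narrow peak at the start in 100 bp bins, which could blur one. A midpoint was set 100 bp from the 5′ end of each read, as for a fragment of 200 bp. Fragment distances were 85 bp (LUZP1) and 162 bp (mock), so positions were displaced, by different amounts in each library. A narrow peak could thus be spread over several bins, and the ratios of single bins compare displaced positions. Fragment midpoints, counted in 100 bp bins over the 82 genes, numbered 13 to 35 per bin within 1000 bp in LUZP1 and 6 to 23 in the mock, or 0.962 to 2.59 and 0.684 to 2.62 times the genome mean. The ratio had an interval above 1 in 3 of 20 bins and below 1 in 1, with no adjustment for the number of bins. At the other coding starts, which hold far more midpoints, the interval lay above 1 in all 20 bins, at ratios of 1.06 to 1.28. In the bin from -500 to -401 the members' ratio was 0.367 (0.171 to 0.755) on 13 and 23 midpoints, and in that from -300 to -201 it was 2.81 (1.13 to 8.35) on 26 and 6. In the 3 bins from -200 to 99 the ratio was close to 1, with 31, 31 and 34 LUZP1 and 20, 20 and 22 mock midpoints. From 100 to 199 it was 2.76 (1.25 to 6.90) on 34 and 8, and from 500 to 599 it was 2.07 (1.03 to 4.51) on 35 and 11. The bins that stood apart were not next to each other, and in 3 of them the mock held 11 midpoints or fewer.

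**Figure D3:**
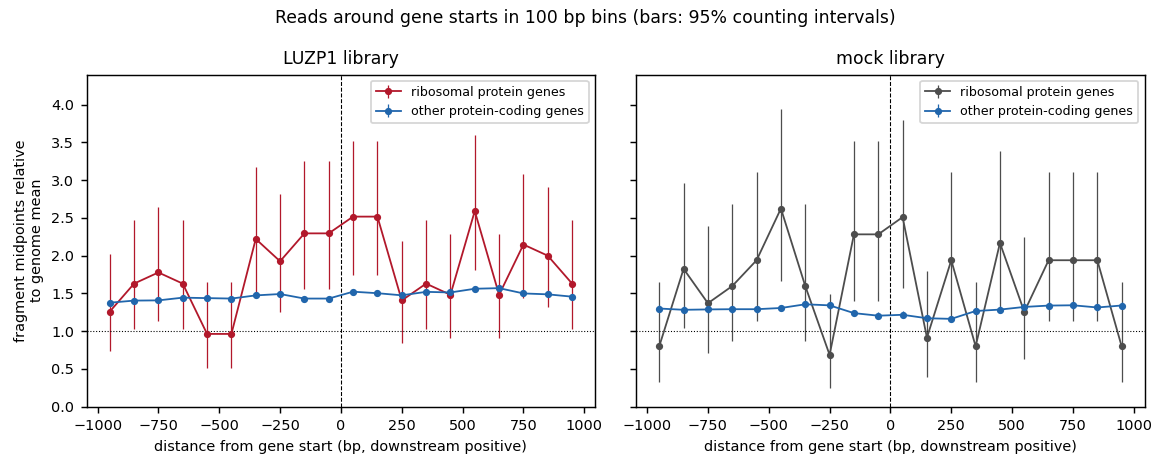
Fragment midpoints in 100 bp bins around the start (downstream positive), relative to the genome mean, in the LUZP1 library on the left and the mock on the right; ribosomal protein genes are in red or grey, the other 22285 coding starts in blue, and bars are 95% counting intervals. In the bin from 0 to 99 ribosomal protein genes stand at 2.52 times the mean in LUZP1 and 2.51 times in the mock. From 100 to 199 they stand at 2.52 and 0.913 times. The highest bins lie elsewhere, at 2.59 from 500 to 599 in LUZP1 and 2.62 from -500 to -401 in the mock. The wide bars show how few reads each bin holds. Midpoints were set 100 bp from the 5′ end of each read in both libraries, whatever the fragment length.

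By region, the 201 bp at the start held the highest density of both libraries, though not beyond counting error. There the members had 130 LUZP1 and 71 mock reads, 2.41 times the genome mean (2.01 to 2.86) and 2.03 times (1.58 to 2.55), against 1.47 and 1.21 times at other coding starts. From 101 to 500 bp downstream LUZP1 density was 2.03 times (1.73 to 2.36). Mock density from 500 to 101 bp upstream was 1.905 times (1.55 to 2.32). Both intervals overlap those of the core. The ratio in this core was 1.19 (0.883 to 1.61). Relative to windows of 1001 bp, longer than the core, with the same GC content it was 0.940 (0.699 to 1.27). From 500 to 101 bp upstream it was 0.934 (0.719 to 1.22), and from 101 to 500 bp downstream 1.25 (0.958 to 1.65).

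Away from the start, from 5000 to 1001 bp upstream, LUZP1 stood at 1.47 times the genome mean and the mock at 1.28 times, and the ratio was 1.15 (1.02 to 1.29). In the rest of the gene, past 500 bp from the start, the densities were 1.81 and 1.51 times and the ratio was 1.20 (1.08 to 1.33), on 1002 and 543 reads. Both intervals lie above 1, while on the GC-matched scale they were 1.04 (0.923 to 1.16) and 1.07 (0.965 to 1.19). At other coding genes the ratio was 1.06 (1.05 to 1.07) in the flank and 1.03 (1.03 to 1.04) in the rest of the gene. After GC matching those were 0.992 and 0.990. The members' intervals of the ratio in the whole promoter window, in its 3 regions, in the gene and in the flank overlapped, and their differences were not tested.

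**Figure D4:**
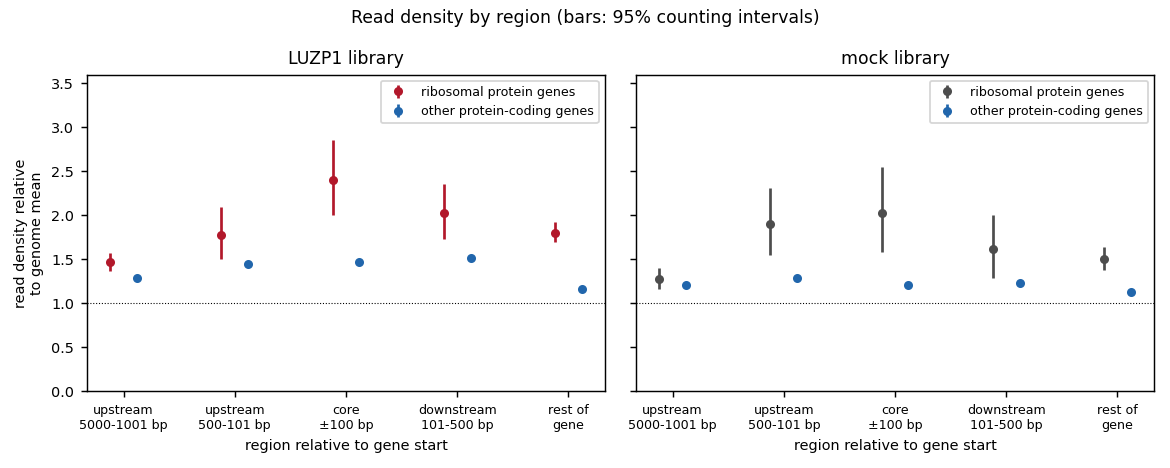
Read density relative to the genome mean in 5 regions, from the upstream flank to the rest of the gene, for ribosomal protein genes (red or grey) and other coding genes (blue) in each library, with 95% counting intervals. Both libraries are highest at the core in ribosomal protein genes, at 2.41 and 2.03 times the mean, while other genes stay near 1.5 times or lower. The core's intervals overlap those of neighbouring regions.

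The authors listed 47 LUZP1 peaks, and 0 of them overlapped a member's window. Of all 22367 coding starts 8 (0.0358%) had a listed peak in the window, so none among 82 is at the background and shows nothing particular to these genes. The nearest lay 31989 bp from the start of Rpl10a.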

How the data were processed

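Per the labels' design text, the authors aligned Genome Analyzer II reads to mm9 with Eland, allowing 1 mismatch, called peaks with MACS, kept those of 100 to 1000 bp and masked repeats; no source used here gives tool versions. The authors deposited mapped reads as counts of 1 per line, with no repeated positions per strand, and a peak list holding positions only. Genes came from GENCODE release M1 on NCBIM37, the assembly also called mm9, and sequences from that assembly. Members and lists were chosen with earlier results of these data known.

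Reads were extended to 200 bp and counted where they overlapped a window. LUZP1 counts were scaled by 0.649, mock reads divided by LUZP1 reads. Ratios carry exact conditional binomial (Clopper-Pearson) 95% intervals and densities exact Poisson intervals. Quotients of ratios carry normal-approximation intervals on the log scale. Reads are not independent molecules, and intervals cover counting error only. The genome mean for the 1001 bp windows is over 2555338 windows of that length without unknown bases. These were grouped for GC matching in steps of 2 percent. For regions and bins the genome mean is the library's reads divided by all known bases. GC matching of regions also used the 1001 bp windows, whatever the region's length. Fragment distances were 85 bp (LUZP1) and 162 bp (mock), and pairs at 74 to 96 and 150 to 175 bp were joined. Genes named were those with an interval off 1, the most reads, the highest and lowest 5 ratios, and well-known members. The counting was tested on simulated data. Python 3.11.15, SciPy 1.17.1 and pandas 2.3.3 were used. The values of 1 member entered all sums and are not reported singly here.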

Additional observations from a re-analysis of the deposited data

How the results depend on the processing

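Of 93 alternative values computed for the results above, 85 stayed within the interval of the value reported or, for counts, within 1.5 times it. The exceptions were these. Scaled to windows of the same GC content, the pooled ratio was 0.883 instead of 1.08 and the median over genes 0.898 instead of 1.02. The members with an interval above 1 numbered 1 with 250 bp on each side of the start, 0 without extension of reads, 0 with paired reads counted once and 0 on the GC-matched scale. The 1 at 250 bp was Rpl27 (9 and 0 reads), and at 1000 bp they were Rpl18, Rpl27 and Rps14. On the GC-matched scale 2 members had an interval below 1, among them Rps13 with an upper bound of 0.922. Without extension of reads, 14 members instead of 9 were at least 2-fold lower. The shares of all coding starts called under these other settings are not given here, so these counts cannot be set against a background. With each library extended to its own fragment distance the pooled ratio was 0.997 (0.823 to 1.21). The interval of the large subunit ratio came to lie above 1 with 1000 bp on each side, at 1.23 (1.02 to 1.48). All members divided by the other coding starts were at 0.992 (0.862 to 1.14) at that width. The alternatives for the snoRNA hosts and the TOP list were chosen after seeing the data. The quotient for hosts ran from 0.482 to 0.727, with an interval reaching 1 without extension (0.452 to 1.01), and the TOP ratio from 1.50 to 2.11, with an interval reaching below 1 at 250 bp (0.927 to 5.39). No paired analysis was possible because each group had 1 library. Depth limits single genes: a promoter held at most 9 reads of either library.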

Other observations

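The sequence features of the start were set beside the reads, in 7 splits of the 82 members made besides the 5 by gene class. Members whose first annotated base is C, a split chosen after the values were seen, had 96 LUZP1 and 36 mock reads over 21 genes, a ratio of 1.73 (1.17 to 2.61), and the other 61 had 212 and 149, a ratio of 0.923 (0.745 to 1.15), a quotient of 1.87 (1.21 to 2.90). The 23 members with a run of 8 or more pyrimidines reaching within 10 bp of the annotated start had 99 and 44 reads, a ratio of 1.46 (1.01 to 2.13). The run need not include the start. The other 59 were at 0.962 (0.773 to 1.20), a quotient of 1.52 (1.003 to 2.30). Reads were compared at the length of 8 only. The ratios of these splits were not matched for GC content. Other coding starts had a ratio of 1.17, and genomic windows of the GC content of all members 1.22. The lower bounds of 1.17 (first base C) and 1.01 (pyrimidine run) lie below that 1.22. Enrichment over such windows is therefore not shown. The 9 members with CACGTG had 33 and 33 reads, a ratio of 0.649 (0.388 to 1.08), a quotient of 0.553 (0.328 to 0.931) to the rest. Each of the 82 members was left out in turn, a check chosen after seeing the data. The interval stayed off 1 in 82 cases for the first base C (quotient 1.72 to 2.37) and in 43 for the pyrimidine run (1.41 to 1.75). For CACGTG it did so in 80 (0.498 to 0.645), where the highest quotient had an interval of 0.361 to 1.15. The check reuses the same reads of 1 library per group, and genes are not replicates, so it gives no support to the splits. The quotients for CCGGAA (0.863, 0.598 to 1.25), GGGCGG (0.861, 0.598 to 1.24), AAGATGGC (0.906, 0.505 to 1.62) and TATAAA (1.19, 0.664 to 2.14) had intervals that include 1. These intervals were not adjusted for the 12 splits, and the classes overlap.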
